A study of Caenorhabditis elegans with 2 samples.

Results

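The peaks described here are the autosomal peaks of a CEH-82 chromatin immunoprecipitation that lay inside introns and away from gene starts. They were the ce11 peaks of the optimal list on chromosomes other than X whose summit was more than 500 bp from the annotated start of every protein-coding gene, inside a protein-coding gene and in none of its exons. This rule gave 302 of the 2346 optimal peaks, and of the 1915 optimal peaks on autosomes. The other autosomal peaks were 1101 within 500 bp of a gene start, 470 intergenic peaks and 42 peaks in exons. In the place of a control, 4034 weaker peaks with the same kind of position served as intronic background peaks. These came from the relaxed list of the pooled data and overlapped no optimal peak.

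CEH-82, the product of F45C12.2, is a homeodomain protein of the nematode Caenorhabditis elegans, and its chromatin immunoprecipitation with sequencing (ChIP-seq) was carried out on whole L1 larvae of both sexes. All larvae were of strain OP212, which carries unc-119(ed3) on chromosome III and the array ddEx58, and which expressed F45C12.2 with GFP-FLAG at the C-terminus. There was 1 group with 2 biological replicates, and the antibody is labelled ceh-82, so it is unclear whether it recognised the tag. ChIP from larvae without the tagged protein was not analysed here, so signal from other sources was not separated in any result. Whole larvae hold many tissues, and the lists do not tell from which of them the signal at a peak came.

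Introns can hold regulatory sequence, the starts of shorter transcripts of the same gene, and whole genes for small RNAs. Small nucleolar RNAs (snoRNAs) guide the modification of ribosomal RNA, small nuclear RNAs (snRNAs) take part in splicing, and tRNAs carry amino acids to the ribosome. A tRNA gene is transcribed by RNA polymerase III from control boxes inside the gene, and the second of these, the B box, is commonly written GTTCNANNC. Genes for snRNAs use an element upstream of the RNA instead. In C. elegans many snoRNA genes lie in introns, and a number of them have promoters of their own.

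Sequences at small RNA genes are shown first, on the strand of the RNA. Each is 151 bases around the summit of a peak from the RefSeq WBcel235 genome (the assembly of ce11). The strongest peaks at intronic snoRNA and snRNA genes shared the letters CGNAACNC, a spacer of 6 bases and TGTC, marked here in capitals. The summit is the middle base, and in the order below the RNA gene begins 30, 60, 61 and 27 bp after it. The windows are chrV:8500474-8500624 on the plus strand, chrIII:10989544-10989694 on the plus strand, chrV:8228955-8229105 on the minus strand and chrII:12944919-12945069 on the minus strand.
ZK994.7 in pxn-1: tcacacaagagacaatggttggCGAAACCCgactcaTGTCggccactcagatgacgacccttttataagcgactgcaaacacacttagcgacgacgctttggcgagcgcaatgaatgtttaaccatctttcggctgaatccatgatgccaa
W05B2.8 in dhc-4: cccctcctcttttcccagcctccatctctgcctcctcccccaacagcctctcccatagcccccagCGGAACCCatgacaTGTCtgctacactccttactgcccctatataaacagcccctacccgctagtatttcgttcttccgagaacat
C16D9.11 in rol-3: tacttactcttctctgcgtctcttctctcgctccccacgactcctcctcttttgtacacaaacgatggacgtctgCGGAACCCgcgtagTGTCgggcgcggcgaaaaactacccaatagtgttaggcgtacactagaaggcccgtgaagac
sup-6 in F58G1.7: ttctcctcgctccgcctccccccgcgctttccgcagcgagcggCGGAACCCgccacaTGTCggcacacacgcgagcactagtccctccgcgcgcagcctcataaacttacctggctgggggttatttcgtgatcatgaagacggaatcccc

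A second set of snoRNA genes had no such letters and held GTTCNANNC just before the RNA instead, which the capitals mark in the 3 strongest of these peaks. The RNA gene begins at bases 104, 138 and 117. The windows are chrV:19643140-19643290 on the minus strand, chrII:10840180-10840330 on the plus strand and chrV:11314142-11314292 on the plus strand.
Y43F8C.22 in Y43F8C.7: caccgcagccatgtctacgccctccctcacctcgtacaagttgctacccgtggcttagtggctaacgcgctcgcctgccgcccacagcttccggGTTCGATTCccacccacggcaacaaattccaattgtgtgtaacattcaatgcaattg
M106.6 in mix-1: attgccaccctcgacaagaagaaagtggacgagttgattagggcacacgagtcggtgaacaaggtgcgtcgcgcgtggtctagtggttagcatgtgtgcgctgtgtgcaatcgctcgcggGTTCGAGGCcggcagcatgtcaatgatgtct
T03F7.8 in cutl-18: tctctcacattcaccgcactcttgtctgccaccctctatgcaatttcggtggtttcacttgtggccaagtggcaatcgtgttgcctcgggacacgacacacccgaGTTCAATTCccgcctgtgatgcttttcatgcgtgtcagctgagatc

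The 2 strongest windows at tRNA genes outside the first chromosome are shown with the bases of the tRNA gene in capitals, because the summit lay before the gene in both. They are chrIV:658078-658228 and chrII:6853101-6853251, both on the plus strand. The tRNA genes encode tRNA-Sec, which carries selenocysteine, and tRNA-Leu, and both begin at base 104.
K11H12.t1 in K11H12.8: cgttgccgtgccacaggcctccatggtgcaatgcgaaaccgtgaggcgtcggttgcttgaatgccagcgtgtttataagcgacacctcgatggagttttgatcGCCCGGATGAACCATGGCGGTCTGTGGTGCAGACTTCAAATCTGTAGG
C04A2.t1 in C04A2.15: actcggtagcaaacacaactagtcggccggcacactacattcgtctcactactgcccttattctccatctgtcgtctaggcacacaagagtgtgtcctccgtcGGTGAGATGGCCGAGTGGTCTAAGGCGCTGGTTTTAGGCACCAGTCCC

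The 6 strongest peaks outside the first chromosome with no annotated small RNA gene within 100 bp are shown on the strand of the host gene, with GAGAGA and CTGCGTCTC in capitals, on either strand. They are chrIII:12612589-12612739, chrIII:8802054-8802204, chrII:255270-255420, chrIII:10905269-10905419, chrIII:8795804-8795954 and chrII:9603526-9603676. The strand is plus, except for the third and the last. The third window, in scc-2, held neither run of letters.
Y111B2A.12: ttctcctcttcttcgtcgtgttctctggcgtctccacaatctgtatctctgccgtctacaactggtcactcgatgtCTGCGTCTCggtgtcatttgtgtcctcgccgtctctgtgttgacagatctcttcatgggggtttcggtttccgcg
zfp-1, intron 9: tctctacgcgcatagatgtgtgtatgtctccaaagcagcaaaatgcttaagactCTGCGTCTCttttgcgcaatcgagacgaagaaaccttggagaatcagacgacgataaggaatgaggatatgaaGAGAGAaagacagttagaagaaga
scc-2: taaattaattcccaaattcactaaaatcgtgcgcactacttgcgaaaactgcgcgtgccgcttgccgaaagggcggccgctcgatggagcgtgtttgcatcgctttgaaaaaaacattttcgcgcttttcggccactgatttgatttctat
unc-119: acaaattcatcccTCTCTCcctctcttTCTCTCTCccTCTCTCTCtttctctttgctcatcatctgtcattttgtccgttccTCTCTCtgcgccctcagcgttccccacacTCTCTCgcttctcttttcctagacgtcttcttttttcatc
zfp-1, intron 4: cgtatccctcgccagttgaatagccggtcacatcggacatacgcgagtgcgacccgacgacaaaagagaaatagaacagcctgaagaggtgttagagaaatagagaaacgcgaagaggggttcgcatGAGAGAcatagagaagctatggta
nhr-19: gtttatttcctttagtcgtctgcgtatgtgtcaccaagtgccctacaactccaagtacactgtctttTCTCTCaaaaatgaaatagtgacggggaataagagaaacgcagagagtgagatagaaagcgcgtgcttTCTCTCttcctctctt

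The signal of a peak was computed by the authors in a unit that is not given, and it is compared here within the optimal list only. It was computed from pooled reads and so carries no error between replicates. In its place, ranks in the 2 replicates are given for the peaks that overlap it there. The 302 intronic peaks had a median signal of 50.04 (lowest 30.94, highest 264.3), against 50.64 in intergenic peaks and 63.14 in gene start peaks. Intronic background peaks had a median of 13.54. Of the intronic peaks, 56 (18.5%, 95% Wilson interval 14.6 to 23.3%) were among the 586 strongest optimal peaks. This share was 16.2% in intergenic peaks, a difference of 2.37 percentage points that did not pass the test (two-sided Fisher's exact test, adjusted p = 0.433), and 31.5% in gene start peaks, which was higher (adjusted p = 3.45e-05). All such p-values treat peaks as independent and are adjusted by the Benjamini-Hochberg method, here over 5 tests. Intervals cover counting error only.

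**Figure D1:**
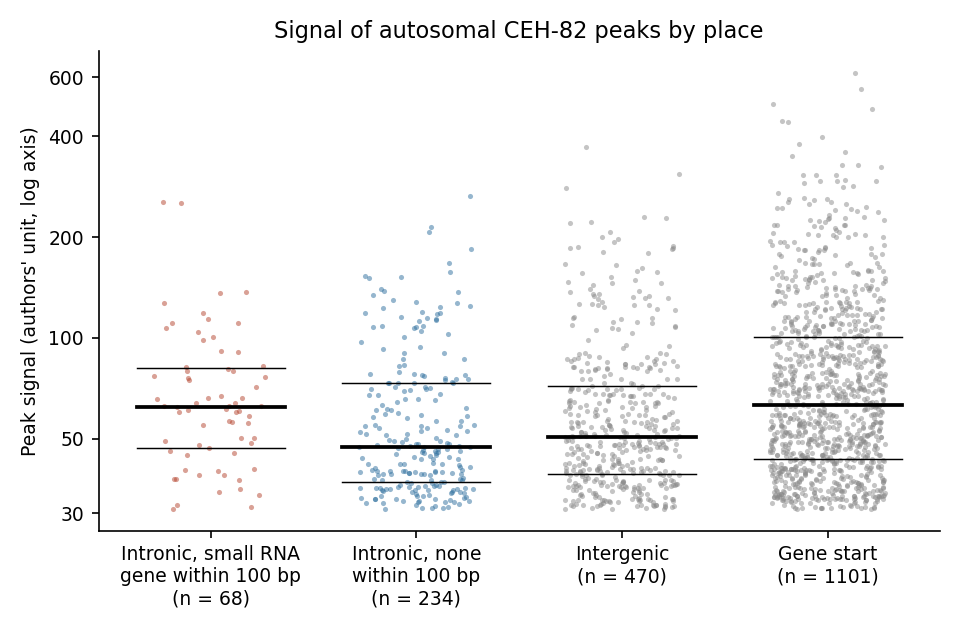
Signal of each autosomal optimal peak (log axis, authors' unit) by place, with 1 point per peak, a thick line at the median and thin lines at the quartiles. Intronic peaks at small RNA genes (n = 68) have a median of 62.33, other intronic peaks (n = 234) 47.36, intergenic peaks (n = 470) 50.64 and gene start peaks (n = 1101) 63.14.

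The strongest intronic peak lay in intron 4 of 7 of Y111B2A.12 (summit III:12612664), with a signal of 264.3 and ranks 48 in replicate 1 and 53 in replicate 2. It was rank 45 of the optimal list. The next were peaks beside the snoRNA gene ZK994.7 in pxn-1, a peroxidasin gene (254.9, ranks 74 and 45), and beside the snRNA gene W05B2.8 in dhc-4, a dynein heavy chain gene (252.7, ranks 30 and 120). These 3 peaks stood above the rest in signal, and the highest rank number among them in either replicate was 120. A peak in zfp-1, which encodes a chromatin protein of the AF10 family, had a signal of 215.0 and ranks 156 and 67. A peak in the first intron of scc-2, the cohesin loader, had 206.8 and ranks 83 and 97. The sixth, in the Integrator subunit gene ints-8, had 183.9 and ranks 140 and 100, and lay at rpr-1, the gene of the RNase P RNA, which is annotated outside the small RNA classes counted here.

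The seventh strongest peak lay in the first intron of unc-119 (summit III:10905344), with a signal of 167.0 and ranks 152 and 142. The strain carries a mutation of that gene, and the labels do not give the sequence of its array, so the part of any extra copies in this signal was not tested. The other peaks among the 20 strongest were a second peak in zfp-1, and peaks in T28F4.1, K11D2.4 and Y43F8B.2, in pbrm-1, a polybromo subunit of a chromatin remodeller, in nhr-19, a nuclear hormone receptor gene, and in epg-9, an autophagy gene. Further ones lay in rol-3, a receptor tyrosine kinase gene, mdt-26, a Mediator subunit gene, F58G1.7, nova-1, which encodes an RNA-binding protein, mnk-1, a kinase gene, and unc-108, the Rab2 gene. Their signals ran down to 127.5 at unc-108. Of these 20 peaks, the rank in replicate 1 was never above 422 and that in replicate 2 never above 494. The 5 weakest were in daf-5, K01F9.2, pgal-1, glr-2 and C17E4.6, with signals of 31.18 down to 30.94, and the peak in pgal-1 was a top peak of neither replicate (ranks 3574 and 2616).

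Most intronic peaks were found in both replicates, and most exceptions were among the weaker ones. A top peak is here 1 of the 2346 strongest of a replicate's own list of 30000. Of the 302 intronic peaks, 253 were matched by a top peak in replicate 1 and 261 in replicate 2. Both replicates matched 217 and neither matched 5. Of the 151 strongest, 149 overlapped a top peak of both, against 68 of the 151 weakest. The share of 71.9% (66.5 to 76.6%) was 68.5% in intergenic peaks, which did not pass the test (adjusted p = 0.42), and 80.9% in gene start peaks, which was higher (adjusted Fisher's exact p = 0.00134). That last difference was -0.283 percentage points, with an adjusted Fisher's exact p of 0.799, when only the 1173 strongest optimal peaks were kept. In this setting the shares were 99.24% and 99.53%, both so close to the upper limit that little room was left for a difference. For the 300 intronic peaks that both relaxed lists contain, Spearman's rho between the ranks was 0.629, given as a description, since peaks of 1 list share their libraries. The optimal list was chosen by the repeat of ranks in these same replicates, so these shares describe it and do not test it.

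**Figure D2:**
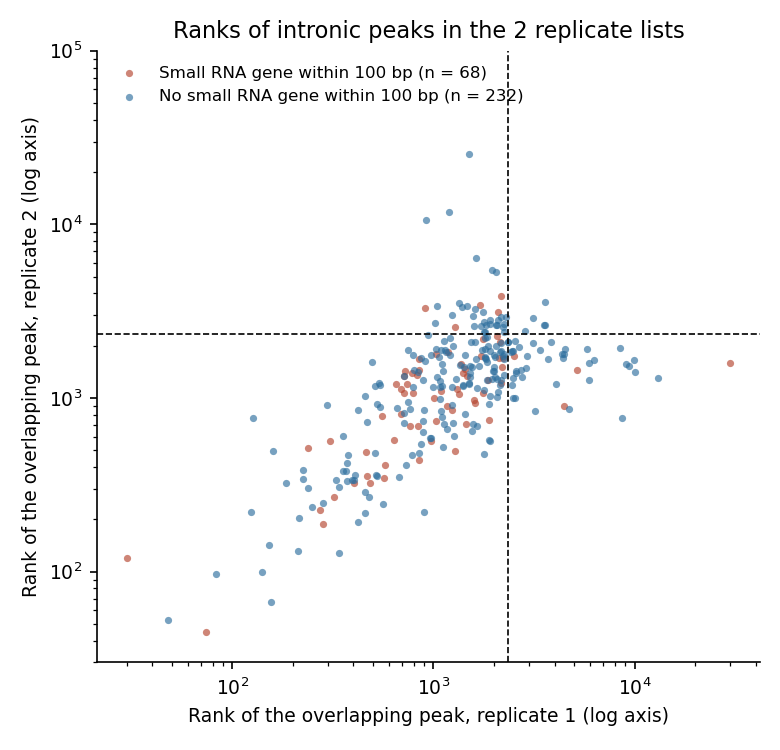
Ranks in replicate 1 (horizontal) and in replicate 2 (vertical), both on log axes, for the 300 intronic peaks found in both relaxed lists, and dashed lines at rank 2346. Strong peaks lie toward the lower left, some of them off the diagonal, such as a peak in mnk-1 with ranks 159 and 494. Peaks beyond a dashed line are outside the top peaks of that replicate.

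Of the 8 features compared with background peaks, small RNA genes had the highest odds ratio. All 8 were chosen with earlier results of these data known, so their p-values are not those of features chosen beforehand. A gene annotated as tRNA, snoRNA, snRNA, miRNA or rRNA lay within 100 bp of the summit of 68 of 302 intronic peaks (22.5%, 18.2 to 27.6%), against 55 of 4034 background peaks (1.36%, 1.05 to 1.77%). The odds ratio was 21.0 (two-sided Fisher's exact test, adjusted over 8 tests, p = 1.41e-47). The difference of 21.15 points was 3.147 when the summit had to be inside the RNA gene (3.642% against 0.4958%, adjusted exact p = 7.5e-06), 12.33 when the whole peak, commonly 280 bp wide, had to lie outside exons, and 31.97 among the 1173 strongest optimal peaks, and the call was kept in each. The share was also higher than the 10.6% (50 of 470) of intergenic peaks (adjusted Fisher's exact p = 3.45e-05). That second call was lost, at 2.52 percentage points and an adjusted p of 0.432, when the whole peak had to lie outside exons, which leaves out peaks in short introns. It was also lost when the summit had to be inside the RNA gene (2.15 points, adjusted exact p = 0.14).

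The nearest small RNA was a snoRNA in 32 of the 68 peaks, a tRNA in 28, an snRNA in 7, the miRNA mir-2214 in 1 and an rRNA in none. Among the background peaks tRNA genes led, with 41, followed by 6 snoRNA, 4 snRNA and 4 miRNA genes. Peaks at snoRNA genes had a median signal of 69.4 (33.91 to 254.9, n = 32) and those at tRNA genes 52.81 (34.63 to 104.5, n = 28). The 7 at snRNA genes ran from 30.95 to 252.7. The snoRNA genes with the strongest peaks after ZK994.7 were C16D9.11 in rol-3 (137.4), Y37E3.20 in pcyt-2.1 (127.4), Y43F8C.22 in Y43F8C.7 (118.4), C08D8.3 in C08D8.1 (114.0), smy-2 in C33A12.3 (111.0) and C51F7.4 in frm-7 (110.5). M106.6 in mix-1, which encodes an SMC subunit of condensin, had 107.3, and Y38F2AR.14 in Y38F2AR.12 had 100.5. The strongest snRNA genes after W05B2.8 were sup-6 in F58G1.7 (136.6) and sup-39 in C15F1.5 (91.18).

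The 28 tRNA genes covered 16 kinds of tRNA, from 4 for arginine to single genes for methionine, tryptophan and others. The strongest was tRNA-Arg in spe-15, a myosin gene (104.5, summit 86 bp before the tRNA), followed by tRNA-Sec in K11H12.8 (90.7) and tRNA-Gly in set-18 (80.82). At the low end was tRNA-Cys in F32B4.8 (34.63). Of the 7 snRNA genes, 2 encode the SL2 spliced leader that is joined to mRNAs of operons, and both had weak peaks, sls-2.14 in W09D6.5 (31.38) and sls-2.5 in glr-2, a glutamate receptor gene (30.95). Many tRNA, snRNA and spliced leader genes have near-identical copies, so reads at a single copy are uncertain. The classes are those of the annotation, also for sup-6, sup-39 and smy-2, and were not checked. Its class for smy-2 (snoRNA) differs from that for smy-1 (snRNA), which lies in the same host.

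Not every small RNA gene in such introns had a peak. Of those in intron positions that the rule allows, 30 of 131 snoRNA genes (22.9%), 29 of 158 tRNA genes (18.4%), 7 of 55 snRNA genes (12.7%) and 1 of 65 miRNA genes (1.54%) had one of the intronic peaks within 100 bp. No piRNA gene lay within 100 bp of any of the 302 summits, against 100 of 4034 background summits (2.48%). This pair was not tested, so no avoidance of piRNA genes can be read from it.

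The summits lay mostly before the RNA. In 56 of 68 peaks the summit was upstream of the RNA start, and in 11 it was inside the RNA gene. The median position was -43.5 bp at snoRNA genes (quartiles -62 and -30), -36 bp at snRNA genes and -24.5 bp at tRNA genes (quartiles -31.25 and -3.75). At tRNA genes 21 of 28 summits were upstream, and at snoRNA genes 28 of 32. The RNA gene was on the strand of its host gene in 49 of 68 cases (72.1%, 60.4 to 81.3%), and the share was close to this in each class, with 23 of 32 snoRNA, 20 of 28 tRNA and 5 of 7 snRNA genes. The strand share of all small RNA genes in allowed introns was not computed, so no strand preference of the peaks can be read from this.

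**Figure D3:**
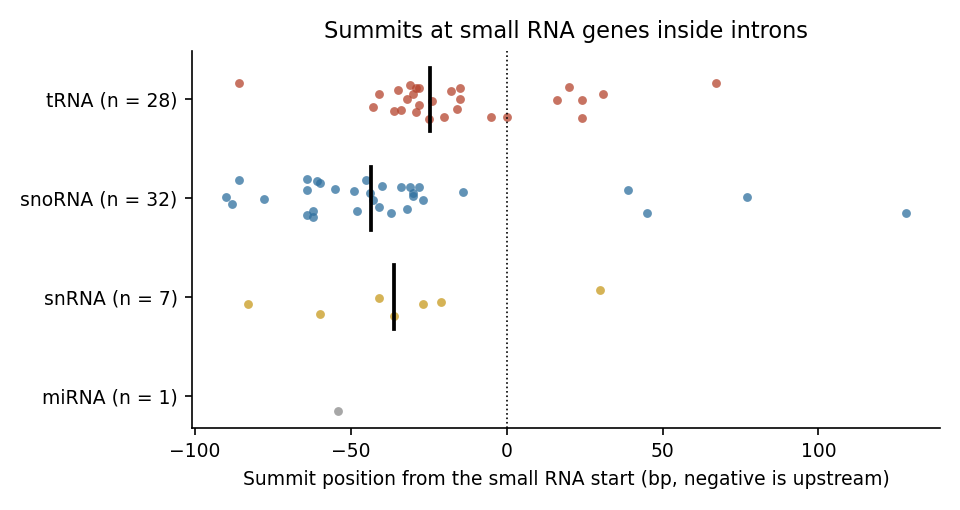
Position of each summit from the start of the nearest small RNA gene in bp, read in the direction of the RNA, by RNA class, with 1 point per peak and a line at the median. Most points lie left of 0, with medians of -24.5 bp for tRNA, -43.5 bp for snoRNA and -36 bp for snRNA genes.

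The letters shown above were then counted over all small RNA genes in the allowed introns, on the strand of the RNA and in the 100 bp before it. They were picked after the sequences had been read, so these are counts without a test. CGNAACNC, 6 bases and TGTC stood before 11 of 30 snoRNA genes with a peak and 6 of 101 without, and before 6 of 7 snRNA genes with a peak and 10 of 48 without. It stood before no tRNA gene. In the 17 genes with a peak it began at a median of 61 bp before the RNA (quartiles 61 and 62, range 57 to 83). In windows of 100 bp at background summits it was found on 1 strand in 0.0496%. GTTCNANNC stood before 10 of 30 snoRNA genes with a peak and 6 of 101 without, at a median of 15.5 bp before the RNA, and in 1.81% of background windows. No snoRNA gene had both, and 9 of the 30 with a peak had neither. Inside the tRNA gene itself, GTTCNANNC was found in 27 of the 28 cases. These letters are the B box of tRNA genes in general. No such count is given here for the 129 tRNA genes without a peak, so the 27 are no trait of the peaks.

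The same letters were searched on both strands within 75 bp of the 234 summits with no annotated small RNA gene. The longer pattern was found at 1 of them, the ints-8 peak at rpr-1, against 9 of 4034 background summits (0.223%). GTTCNANNC was found at 9 of 234 (3.85%), against 4.91% of background summits, and the strongest of these 9 peaks was in mdt-26 (136.8). The tested count of GTTCNANNC, within 50 bp of the summit, gave 19 of 302 intronic peaks (6.29%) and 135 of 4034 background peaks (3.35%). The adjusted Fisher's exact p was 0.0141, for letters chosen with earlier results of these data known. Of those 19 peaks 12 were at small RNA genes. The difference of 2.945 points was 9.996 in 100 bp windows (16.89% against 6.891%, adjusted exact p = 6.37e-08), and the call was lost in 25 bp windows (0.475 points, adjusted exact p = 0.467).

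Host introns were next described. Each summit was placed in the longest annotated protein-coding transcript whose intron spans it. Intronic peaks lay in the first intron in 100 of 302 cases (33.1%, 28.1 to 38.6%), against 946 of 4018 background peaks (23.5%, 22.3 to 24.9%; adjusted Fisher's exact p = 0.000321). Another 16 background summits lay in no intron of a protein-coding transcript and were left out of this count. Introns over 1 kb held 207 of 302 intronic peaks (68.5%) and 2327 background peaks (57.9%; adjusted Fisher's exact p = 0.000321). The median intron length was 2649 bp for intronic peaks and 1290 bp for background peaks. Both calls were lost when the whole peak had to lie outside exons (6.29 points, adjusted exact p = 0.0839, and 4.02 points, adjusted p = 0.206), a setting that leaves 228 of the 302 peaks. The call on length was also lost among the 1173 strongest optimal peaks (3.45 points, adjusted exact p = 0.474).

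**Figure D4:**
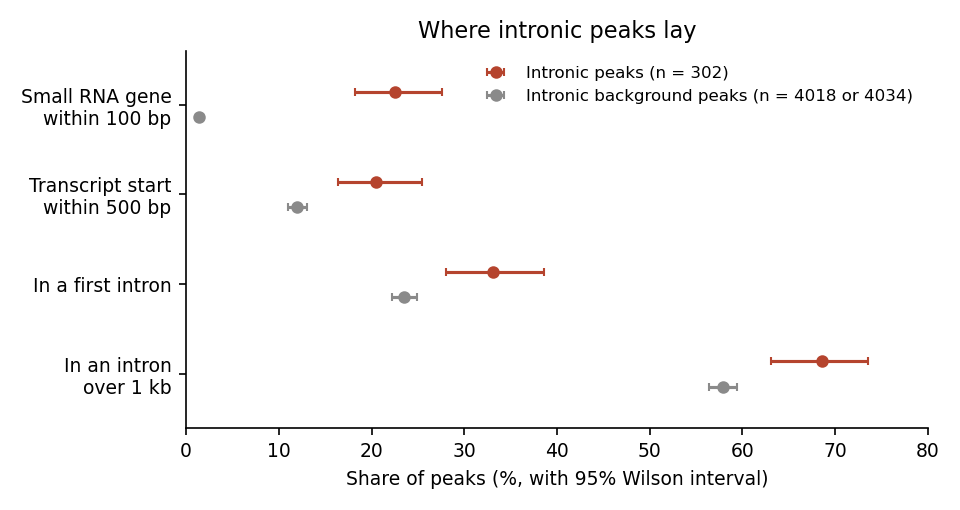
Share of intronic peaks (n = 302) and of intronic background peaks (n = 4034, or 4018 for the lower pair of features) with each feature, in percent with 95% Wilson intervals. Of the 4 features plotted, small RNA genes show the widest gap in percentage points, 22.5% against 1.36%, and first introns 33.1% against 23.5%.

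Peaks at small RNA genes and the other intronic peaks lay in different kinds of intron, a split that was made after these values were seen and is described without a test. Of the 68 peaks at small RNA genes, 3 were in first introns (4.41%) and 11 in introns over 1 kb (16.2%), with a median intron length of 403 bp (115 to 4003 bp). Of the other 234 peaks, 97 were in first introns (41.5%) and 196 in introns over 1 kb (83.8%), with a median length of 3899 bp. The shortest intron with a peak was that of swt-5, 115 bp, which holds a tRNA-Ala gene.

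**Figure D5:**
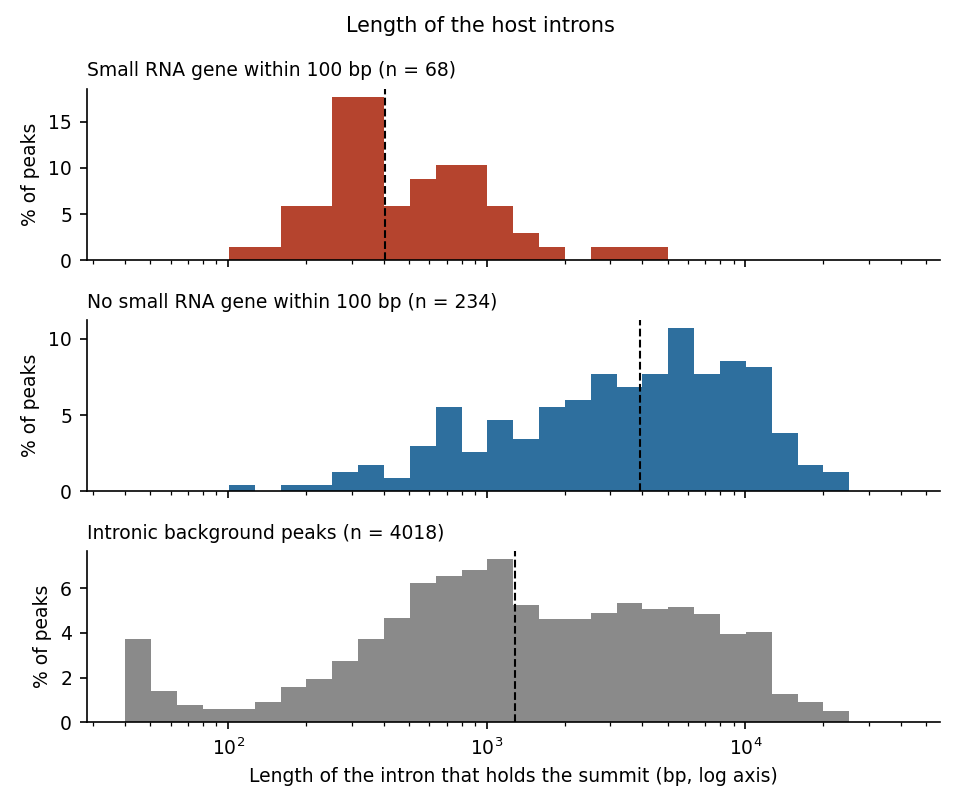
Length of the intron around each summit (bp, log axis) as a percent of peaks, for intronic peaks at small RNA genes (n = 68), other intronic peaks (n = 234) and intronic background peaks (n = 4018), with dashed lines at the medians of 403, 3899 and 1290 bp. Introns over 1 kb hold 16.2% of the peaks at small RNA genes and 83.8% of the other intronic peaks.

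The longest introns with a peak belong to kin-1, the catalytic subunit of protein kinase A (21230 bp, with signals of 61.04 and 35.22), kcc-2, a potassium-chloride cotransporter gene (21046 bp, 52.9), hmr-1, the cadherin gene (18310 bp, 52.51), and T28B11.1 (17091 bp, 118.0). Introns within the 5' UTR held 59 of 302 intronic peaks (19.5%) and 9.11% of background peaks, and last introns held 20 (6.62%) and 12.7%. These last 2 pairs were not tested. Summits lay at a median of 52.0% of the way along the intron and 675 bp from the nearest exon (11 to 8494 bp).

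Starts of shorter transcripts were the second feature at the intronic peaks. A start of an annotated protein-coding transcript lay within 500 bp of 62 of 302 summits (20.5%, 16.4 to 25.4%), against 483 of 4034 background summits (11.97%; adjusted Fisher's exact p = 7.34e-05). The nearest such start was within 100 bp in 13 cases. In all 62 it belonged to a transcript of the host gene. The rule nearly fixes this, since it leaves out summits near the start of any gene, and no such count is given for background summits. The strongest such peak was that of scc-2, 149 bp from a start (206.8). The next, in pcyt-2.1 (127.4), was 385 bp from a transcript start and 48 bp before a snoRNA gene, 1 of 8 peaks with both features. Those of vps-25, an ESCRT gene (26 bp, 119.8), Y43F8B.2 (65 bp, 119.1) and let-607, a bZIP factor gene (77 bp, 118.4), were closer to one. With whole peaks outside exons the difference was 4.07 points and did not pass the test (adjusted exact p = 0.0907).

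The features were then counted together. Each peak was put in the first of 4 classes that held it. Of the 302 intronic peaks, 60 had a small RNA gene and no transcript start, 8 had both, 54 had a transcript start and no small RNA gene, and 29 of the rest had another annotated non-coding gene or pseudogene within 100 bp. The remaining 151 had none of these, among them the peaks in Y111B2A.12, unc-119 and 4 of the 5 in zfp-1. Their median signal was 45.64, against 61.7 for the 60 at small RNA genes. Non-coding genes of the class of 29 included linc-143 at both peaks of daf-2, the insulin receptor gene, with signals of 69.54 and 40.17. Genes of that class were not counted at background summits, so the 29 and the 151 are a description only.

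Short runs of letters around the summit were counted within 50 bp, on both strands. Those tested here were also chosen with earlier results of these data known. GAGAGA was found at 111 of 302 intronic peaks (36.8%, 31.5 to 42.3%), against 393 of 4034 background peaks (9.74%; odds ratio 5.38, adjusted Fisher's exact p = 3.17e-32). TAATTA, a core that many homeodomains bind, was found at 0 of the 302 (Wilson upper bound 1.26%), against 5.18% of background peaks (adjusted exact p = 7.74e-07). TGATAA was found at 3, in wht-3, W03C9.6 and egl-27 (0.993%), against 8.08% (adjusted exact p = 2.95e-07). In 25 bp windows the differences were smaller and the calls were kept, at 17.62 points for GAGAGA, -2.801 for TAATTA and -3.304 for TGATAA. Base composition moved with these counts. The median GC content in the same windows was 49.5% at intronic peaks and 34.65% at background peaks, and its part in the differences was not tested. For comparison without a test, GAGAGA was at 48.7% of intergenic and 20.5% of gene start peaks, where TAATTA was at 0.426% and 1.63%. TGATAA was at 2.13% of intergenic and 1.73% of gene start peaks, and their median GC content was 49.5% and 47.52%. Low shares of TAATTA and TGATAA and a high GC content were thus not particular to intronic peaks.

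GAGAGA was uneven among the intronic peaks themselves. It was found at 8 of 68 peaks at small RNA genes (11.8%) and 44.0% of the other 234. In unc-119 it recurs several times in the window shown above. A further run, CTGCGTCTC, was noticed in the windows of the strongest peaks and counted afterwards, so it carries no test. It was within 50 bp of 53 of 302 summits (17.5%), against 56 of 4034 background summits (1.39%), 19.4% of intergenic and 10.6% of gene start summits. It was within 50 bp at 0 of the 68 peaks at small RNA genes (Wilson upper bound 5.35%), and within 75 bp at 4 of the 68 (5.88%), against 62 of the other 234 intronic peaks (26.5%). One of the 4 is the window of C16D9.11 in rol-3 shown above, where the run is not marked. It was found at 27 of the 151 strongest and 26 of the 151 weakest intronic peaks. The strongest with it were those of Y111B2A.12 (264.3) and zfp-1 (215.0), then epg-9 (137.7), mdt-26 (136.8) and spop-1 (124.7). Of the 53 peaks 34 also had GAGAGA. Within 75 bp, 66 peaks had CTGCGTCTC, with its centre at a median of 20.5 bp from the summit. A group of 112 intronic peaks (37.1%) had neither run and no small RNA gene.

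Host genes were last examined. The 302 peaks lay in 254 genes, 1.74% of the 14593 autosomal protein-coding genes with an intron position that the rule allows. Of these hosts 220 held 1 peak, 27 held 2, 2 held 3, 3 held 4 and 2 held 5, and 62 peaks shared an intron with another. Host genes had more room than other genes, with a median of 5.96 kb of allowed intron against 0.638 kb in all 14593 genes, so counts of hosts in a list move with intron length as well. Chromosome III held 78 of the peaks (25.8%) with 19.6% of the allowed intron bases, and chromosome V 48 (15.9%) with 20.7%. The other 3 autosomes held 56 on I (18.5%, with 22.2% of the bases), 52 on II (17.2% and 16.8%) and 68 on IV (22.5% and 20.8%).

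The 5 peaks of zfp-1 lay in its introns 4 and 9, with signals of 215.0, 157.4, 86.62, 75.56 and 40.5. The 5 of ppfr-1, a regulatory subunit gene of protein phosphatase 4, lay in introns 4 and 5 and had 105.0, 73.5, 71.07, 48.21 and 34.78. All 4 of pqn-41 were in a single intron of 10372 bp and close in strength, at 123.4, 115.4, 106.8 and 102.6. Of the 4 in daf-5, which encodes a Sno/Ski protein of the dauer TGF-beta pathway, 3 lay in its first intron of 14446 bp, with 73.59, 60.89 and 31.18, and the fourth had 31.96. Those of hlh-30, the TFEB homologue, had 56.45, 41.9, 37.09 and 33.2, and those of let-526, an ARID subunit gene of a chromatin remodeller, 97.02, 77.67 and 36.44.

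Lists of host genes were counted against the 1.74% of all genes, with no test. The lists were made from gene symbols and do not hold every gene of a kind. The hosts zfp-1, pbrm-1 and let-526 are outside the chromatin list, and osm-9 and trpa-1, which encode TRP channels, are outside the ion channel list. Of 27 signalling kinase and daf genes, 7 were hosts (25.9%), namely daf-2, daf-5, daf-14, daf-16, mpk-1, mpk-2 and pkc-1, and the median allowed intron in this list was 3.09 kb. The peak in mpk-1, the ERK gene, had a signal of 79.24, that in daf-16, the FOXO gene, 46.55, that in daf-14, a Smad gene, 49.23 and that in pkc-1 40.1. The peak in mpk-2 (55.88) was at a snoRNA gene. Of 19 synaptic genes 3 were hosts (15.8%), ida-1 (39.77), rab-3 (44.75) and snt-3 (47.03), in a list with a median of 4.37 kb. Of 245 nuclear receptor genes 2 were hosts (0.816%, nhr-19 and nhr-46). The lists of 16 bHLH genes (hlh-30, 6.25%) and 45 chromatin genes (set-18, 2.22%) had 1 host each. So did those of 46 chaperone genes (cct-5, 2.17%) and 39 ion channel genes (twk-48, 2.56%). The peaks in set-18 and twk-48 were at tRNA genes. No host was found among 28 cytosolic ribosomal protein genes, 30 translation factor genes, 56 homeobox genes, 26 splicing factor genes, 10 snoRNP and nucleolar protein genes or 16 muscle genes. At the 1.74% of all genes, lists of these sizes would hold few hosts or none. The ribosomal protein genes had a median of only 0.096 kb of allowed intron.

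Just inside the 500 bp limit were the peaks of M117.3 (514 bp from a start, signal 44.38), uba-5 (516 bp, 33.78) and cpz-1, a cathepsin Z gene (518 bp, 62.11, beside the snRNA gene F32B5.9). Just outside were those of C09H10.5 (498 bp, 33.77), K10C3.4 (491 bp, 73.7) and ocrl-1 (488 bp from the start of eat-16, 70.51). The median distance of the 302 summits to the nearest gene start was 3038 bp, and this start was that of the host gene in 204 cases (67.5%).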

How the data were processed

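The measurement was ChIP-seq of CEH-82 in 2 biological replicates of L1 larvae. The deposited files are peak lists. Per the deposited text descriptions, a relaxed list was made for each replicate and for the pooled data against a control alignment, and the optimal list was derived from these by the irreproducible discovery rate. The signal of a peak is the deposited value of the authors, used only within a list, and the summit is the deposited offset from the start of the peak. The aligner, the peak caller, the threshold and the read depth are not given in the sources used here.

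Summits were placed on Ensembl release 115 gene models of WBcel235, on which every ce11 peak fell, and sequences were read from the RefSeq genome of that assembly. Peaks were set against 4034 pooled relaxed peaks that overlap no optimal peak by 1 bp. Shares were compared by two-sided Fisher's exact tests with Benjamini-Hochberg adjustment within families of 8 and 5 tests at 0.05 (Python 3.11.15, SciPy 1.17.1, NumPy 2.4.6), with 95% Wilson intervals. The tests were tried on simulated counts drawn as independent, so the independence of peaks was not checked. The place rule was tried on annotated gene starts and on the middles of annotated introns. Small RNA names are those of RefSeq, matched by WormBase ID. Ranks in a replicate are by signal. No paired fit applies, since there is 1 group.

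The peaks, gene lists, letters and tests were chosen with earlier results of these data known. The named genes are the hosts of the 20 strongest peaks, the 12 strongest at small RNA genes, the 6 hosts with most peaks (ties ranked by summed signal), the 5 peaks in the longest introns, the 5 strongest at transcript starts, the 5 weakest and 3 on each side of the 500 bp limit. Genes from the lists and other examples were named after their values were seen. Other settings took 250 and 1000 bp as the limit around gene starts and varied the use of transcript starts, the overlap with exons, the list, the background, the distance to RNA genes, the intron length, the window for letters and the number of top peaks.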

Additional observations from a re-analysis of the deposited data

How the results depend on the processing

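Over 118 alternative values of the 13 comparisons and of the number of peaks, 10 lost a call, 4 changed sign and 1 count moved by over 1.5 times, and the others kept their direction and side of the threshold. Values are percentage points, intronic peaks minus the other class. When whole peaks had to lie outside exons, which removes short introns, the calls were lost for first introns (6.29), introns over 1 kb (4.02), transcript starts (4.07), GTTCNANNC (1.45) and small RNA genes against intergenic peaks (2.52). Among the 1173 strongest optimal peaks, with 132 intronic ones, they were lost for introns over 1 kb (3.45), GTTCNANNC (3.47) and top peaks of both replicates against gene starts (-0.283). For top peaks the shares were 99.24% and 99.53%, close to the upper limit, which leaves little room for a difference. Small RNA genes against intergenic peaks gave 2.15 with the summit inside the gene, and GTTCNANNC 0.475 in 25 bp windows. The cause was not tested for any of these lost calls. With the summit inside the gene, the call for small RNA genes against background peaks was kept (3.147), while GTTCNANNC gave 9.996 in 100 bp windows. Introns over 1 kb gave 6.89 against the stronger background peaks and 5.992 with a limit of 500 bp, both still called. The comparisons with intergenic peaks that passed no test changed sign at 250 bp, to -2.87 (strongest peaks) and -0.0498 (top peaks of both). That of top peaks of both also did so among the 1173 strongest (-0.253) and with 1173 top peaks per replicate (-0.552). Among the 1173 strongest the shares were 99.24% and 99.49%, again close to the upper limit.

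From the strongest 2346 peaks of each replicate alone, 307 to 318 peaks met the rule, and 249 to 258 of the 302 overlapped one of them. The difference for small RNA genes was 20.7 to 21.5 points, for first introns 8.80 to 14.1, and for GAGAGA 27.7 to 32.5, and none of the 11 comparisons that 1 replicate allows lost a call. Read depth is unknown, so precision rests on the numbers of peaks. No paired analysis was possible because the series has 1 group.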
